A study of Zea mays with 9 samples.

Results

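Germinating maize (Zea mays) seeds given sodium chloride together with melatonin were compared, across genes, with seeds given sodium chloride alone. The deposited table holds 39301 genes, and the 21938 genes with an FPKM (sequenced fragments scaled by gene length and by library size) of at least 1 in 3 or more of the 6 libraries compared were tested. The group labelled NaCl+MT (salt and melatonin) had 3 libraries and the group labelled NaCl (salt alone) had 3, all from seeds at the germination stage and labelled as biological replicates. The remaining group, CK, also with 3 libraries, shared the estimate of the spread between libraries in the fit and is given below only as a level beside the others. The labels state no line, dose or duration, no order of salt and melatonin, no number of seeds per library, and no treatment for CK beyond that abbreviation.

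Melatonin is an indoleamine that plants make from tryptophan by way of serotonin, and it is studied in crops as a seed treatment against salt, cold and drought. Salt slows germination by lowering the water potential around the seed and by loading tissues with sodium and chloride ions. In a germinating cereal grain the embryo axis first takes up water and elongates, cell division then resumes in root and shoot meristems, and the scutellum and aleurone mobilise the starch, lipid and phytate stored around them.

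Of the 21938 genes tested, 2459 rose with melatonin (11.2%) and 1559 fell (7.11%), together 18.3%, by limma's moderated test on log2(FPKM + 1) with Benjamini-Hochberg adjusted p under 0.05. A change of at least 1 on that log2 scale was passed by 1162 genes that rose (5.3%) and 600 that fell (2.73%). All fold changes below are on this scale, NaCl+MT minus NaCl, which understates the change of genes near or under 1 FPKM, and the median over all genes tested was 0.03. Genes that rose took 12.8% to 13.0% of the summed FPKM in NaCl+MT libraries, against 4.08% to 5.48% in NaCl libraries, and their share in CK libraries was 12.7% to 14.3%. Genes that fell took 5.71% to 6.66% in NaCl+MT and 13.7% to 19.9% in NaCl, with 5.07% to 5.79% in CK. These shares describe genes that the test itself chose. The number of calls was lowest without either of NaCl+MT libraries 2 and 3, since 2275 genes were called without NaCl+MT replicate 2 (1502 higher, 773 lower), 2357 without NaCl+MT replicate 3 (1519 higher, 838 lower) and between 2859 and 4235 without any other single library. Calls that held in all 9 fits with 1 library left out numbered 1309 higher (5.97%) and 667 lower (3.04%), and each called gene named below is among them unless the text says otherwise. Without regard to the test, all 3 NaCl+MT values lay on 1 side of all 3 NaCl values for 36.3% of the genes, above them for 20.8% and under them for 15.6%. Of the calls, 61.2% were higher, against 55.1% with median-ratio scaling and 51.7% with quantile normalisation, so the excess of higher over lower genes depended partly on scaling.

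**Figure D1:**
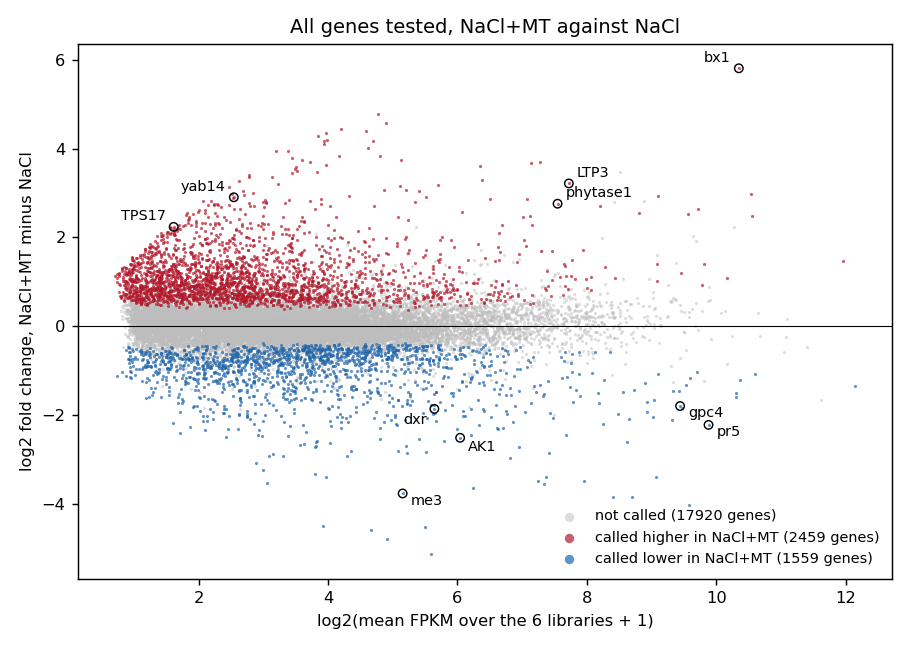
Log2 fold change of log2(FPKM + 1), NaCl+MT minus NaCl, on the y axis against log2 of the mean FPKM of the 6 libraries plus 1 on the x axis, with 1 point per gene tested. The 2459 genes called higher lie mainly to the left, at low mean levels, and the 1559 called lower are spread further to the right. Circles mark 10 genes, of which bx1, me3 and AK1 are not described in the text. The bx1 call held in 6 of the 9 fits with 1 library left out.

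Melatonin and salt libraries differed in spread as well as in level. NaCl+MT libraries had a median within-group SD of 0.150 on the log2 scale over genes, against 0.245 in NaCl, and the SD was larger in NaCl for 70.8% of the genes. NaCl library 1 stood apart from the other NaCl libraries (r across genes 0.945 and 0.936, against 0.973 between NaCl 2 and 3), and NaCl library 3 had about 0.554 times the depth of NaCl+MT library 1, as read from steps in low FPKM values. The other libraries had 0.919 to 1.87 times that depth, and absolute depth is unknown, so no counting interval is given. NaCl+MT libraries 2 and 3 were closer to each other (robust SD of log2 ratios 0.133 over genes at 50 FPKM or more) than either was to library 1 (0.343 and 0.355). The labels do not say that replicates came from separate batches of seed, so the p-values measure the spread between libraries within NaCl+MT, NaCl and CK. A fit on the 6 NaCl+MT and NaCl libraries alone called 3047 genes, 1956 higher and 1091 lower. In such bulk samples, fewer cells of a type and less RNA per cell cannot be told apart.

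Lists of markers of the tissues of the grain had between 2 and 7 tested members each, so their calls say little about tissue make-up. Over all genes tested, 18.3% were called. Of 44 endosperm markers, 25 were listed at 0 and 38 under 1 FPKM in all 6 libraries, 5 were tested, and 0 were called by limma (0 at an unadjusted p under 0.05), with summed FPKM of 11.5 to 13.8 in NaCl+MT and 8.75 to 15.9 in NaCl. Of 10 embryo and scutellum markers 7 were tested, and the one called, the oleosin gene ole1, fell by 0.75 on the log2 scale and kept its call in 4 of the 9 fits with 1 library left out. The embryo markers summed to 70.3 to 97.6 FPKM in NaCl+MT and 75.4 to 113 in NaCl, and the 3 root markers tested, among 4, gave 0 calls by limma (0 at an unadjusted p under 0.05), with sums of 17.9 to 18.9 FPKM in NaCl+MT and 13.2 to 17.9 in NaCl. Of 4 aleurone markers, 3 were tested and only cr4 rose, a call lost without NaCl replicate 1 or NaCl+MT replicate 2 or 3 (sums of 174 to 228 FPKM in NaCl+MT and 59.98 to 205 in NaCl). Of 14 green-shoot markers, 11 were under 1 FPKM in all 6 libraries and 2 were tested, of which the Rubisco small-subunit gene ssu1 rose by 1.01. At 1.58 ± 0.0427 FPKM in NaCl+MT and 0.291 ± 0.224 FPKM in NaCl, ssu1 was a small part of the sums of these markers. The sums were 543 to 889 FPKM in NaCl+MT and 440 to 565 in NaCl. The part of such shifts in the results below was not tested.

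Groups of genes with a known role were read by counts of their tested members, against the 11.2% higher and 7.11% lower of all genes. The lists hold only genes with a name, of which 15.7% were higher and 7.63% lower, so the first reference overstates upward shares. Among lists with at least 8 tested members, the largest shares of higher members were in the kinesins, tubulins and actin cytoskeleton (13 of 26), histones (5 of 10), chloroplast genes (5 of 13), homeobox, YABBY, TCP and growth factors (37 of 98), further cell division genes (10 of 29) and auxin genes (15 of 44). The protease inhibitors had no higher member and 4 of 11 lower, pathogenesis-related and defence genes had 4 higher and 5 lower of 16, and glycolysis and malic enzymes had 1 higher and 5 lower of 23. Splicing (33 members), reserve mobilisation (12) and gibberellin and brassinosteroid genes (6) had 0 calls by limma in either direction, with medians of 0.00, 0.31 and 0.38 and with 7, 2 and 3 members at an unadjusted p under 0.05. The percentages are descriptions, since the lists were drawn up with earlier results of these data known.

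**Figure D2:**
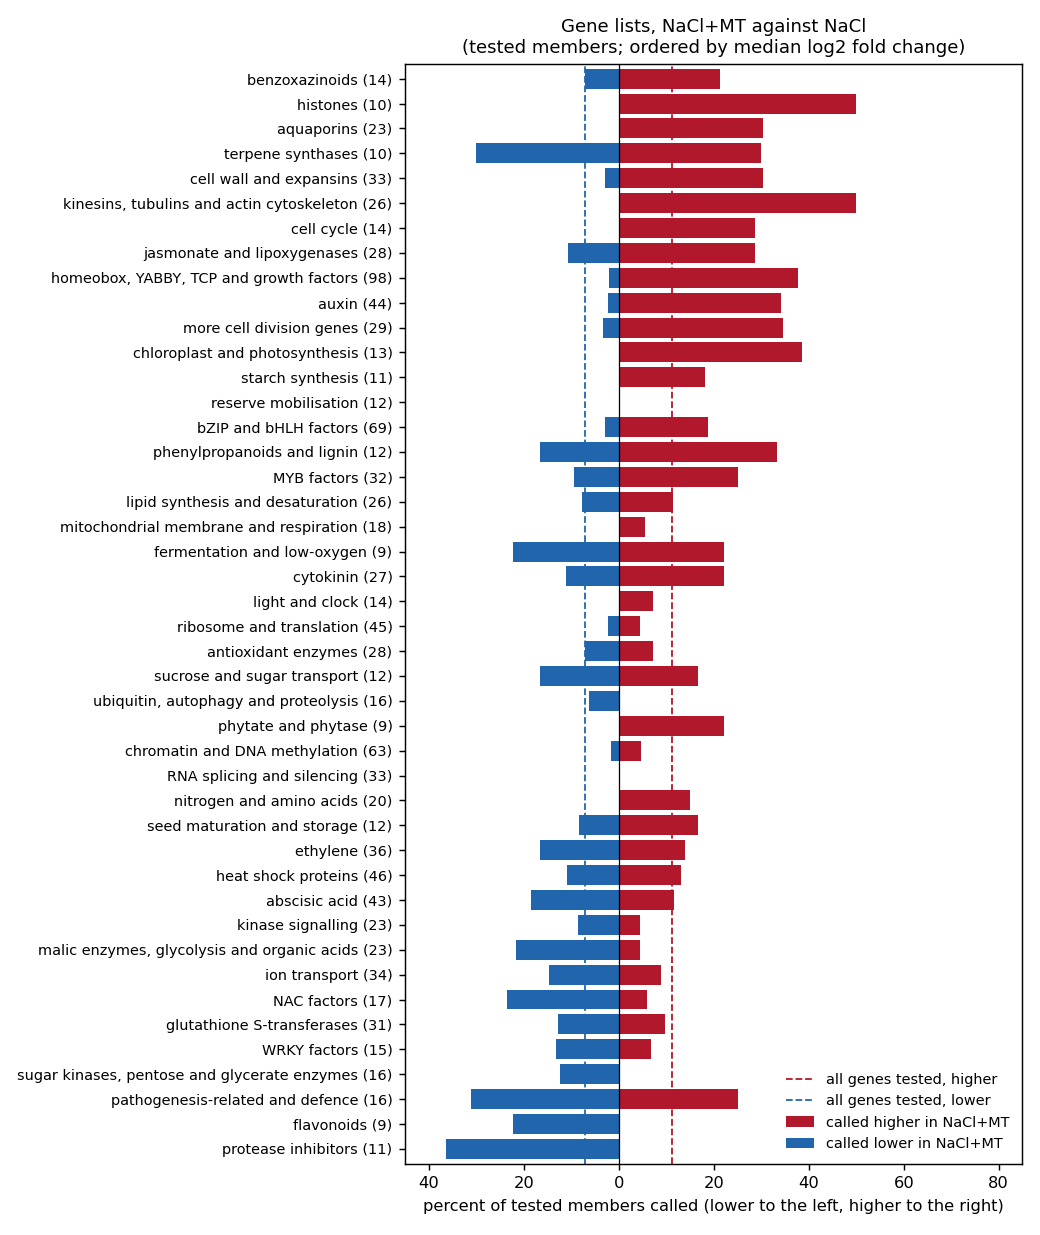
Percent of the tested members of each list that were called higher (right of 0) or lower (left of 0) in NaCl+MT than in NaCl, for lists with at least 8 tested members. Dashed lines mark the percentages over all 21938 genes, 11.2 and 7.11. Over genes with a name, from which the lists were drawn, the percentages are 15.7 and 7.63. The cytoskeleton list reaches 13 of 26 members higher, and the splicing list has none in either direction.

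Growth and patterning factors of young organs were among the genes that rose with melatonin. Of 98 tested homeobox, YABBY, TCP, SBP, MADS and growth factor genes, 37 rose and 2 fell, with a median of 0.36, and 25 of these 39 calls held in all 9 fits with 1 library left out. The transcriptional co-activator gene AN3, whose product works with the growth-regulating factors (GRFs) in leaf cell proliferation, had 20.9, 12.1 and 13.96 FPKM in NaCl+MT, against 2.98, 5.07 and 4.55 FPKM in NaCl. Every NaCl+MT library exceeded every NaCl library (log2 fold change 1.67, SE 0.23, adjusted p = 0.000821), and AN3 averaged 10.3 ± 1.80 FPKM in CK. Of 15 GRF genes 8 rose and none fell, with a median of 0.62. GRF5 averaged 6.62 ± 1.39 FPKM in NaCl+MT and 1.96 ± 0.551 FPKM in NaCl (log2 fold change 1.36, SE 0.19, adjusted p = 0.000931), and GRF14 rose by 1.03, GRF12 by 0.92, GRF13 by 0.85 and GRF6 by 0.82. Of these 8 calls, 6 held in all 9 fits with 1 library left out. GRF4 (-0.16, adjusted p = 0.439) and GRF11 (0.13, adjusted p = 0.625) were not called. Under quantile normalisation 6 GRF genes were called higher.

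YABBY genes are expressed in lateral organ primordia and take part in leaf polarity, and 4 of 5 rose. In NaCl+MT libraries yab14 had 13.1, 6.74 and 8.10 FPKM, against 0.284, 0.481 and 0.253 FPKM in NaCl (log2 fold change 2.90, SE 0.38, adjusted p = 0.000658). All 3 NaCl values were under 1 FPKM, so yab14 passed the filter only through NaCl+MT and could not overlap. CK averaged 4.18 ± 2.88 FPKM. YAB6, YAB3 and YAB5 rose by 1.59, 1.20 and 1.00, whereas YAB11, at 58.2 ± 5.67 FPKM in NaCl+MT and 50.4 ± 16.3 FPKM in NaCl, was not called. The HD-ZIP IV genes, named for expression in the outer cell layer of the embryo, rose in 6 of 7 cases with a median of 0.96. Without NaCl replicate 1 the count was 4 higher, and it was 4 with NaCl+MT replicates 2 and 3 averaged. Among the HD-ZIP IV genes, ocl4 had 4.03, 2.67 and 3.32 FPKM in NaCl+MT, against 0.101, 0.144 and 0.0730 FPKM in NaCl (log2 fold change 1.96, SE 0.19, adjusted p = 0.000117). The filter fixed the direction for ocl4, and its relatives ocl3 and ocl5 rose by 1.18 and 0.89. Another relative, ocl1, was close in both groups, at 14.1 ± 1.09 FPKM in NaCl+MT and 11.9 ± 2.94 FPKM in NaCl (adjusted p = 0.394).

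TCP factors, which tune cell division in leaves and buds, rose in 4 of 7 cases, and the calls of TCP30 (1.34) and TCP7 (1.26) were the ones to hold in all 9 fits with 1 library left out. Some meristem and leaf-development genes outside these families rose too. The receptor kinase gene ERECTA, which promotes organ growth, had 17.1, 13.1 and 14.3 FPKM in NaCl+MT, against 2.10, 3.03 and 3.15 FPKM in NaCl. The groups did not overlap (log2 fold change 2.08, SE 0.20, adjusted p = 0.000102). The MYB-type repressor of knox genes rs2 rose by 1.43 (adjusted p = 0.000569) and the root radial-patterning gene SCR by 1.11 (adjusted p = 0.00725). The knotted gene kn1, a marker of the shoot meristem, was not called, at 2.83 ± 0.263 FPKM in NaCl+MT and 2.57 ± 1.23 FPKM in NaCl. In the opposite direction, CNR10, a member of the cell number regulator family whose founding members restrain organ size, fell to 5.39 ± 2.18 FPKM in NaCl+MT, against 32.3 ± 24.8 FPKM in NaCl (log2 fold change -2.16, SE 0.44, adjusted p = 0.00687). With 1 library left out, the CNR10 log2 fold change ranged from -2.67 to -1.59. Of 9 CNR genes 2 fell and none rose, and the other fall was larger, at -2.98.

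**Figure D3:**
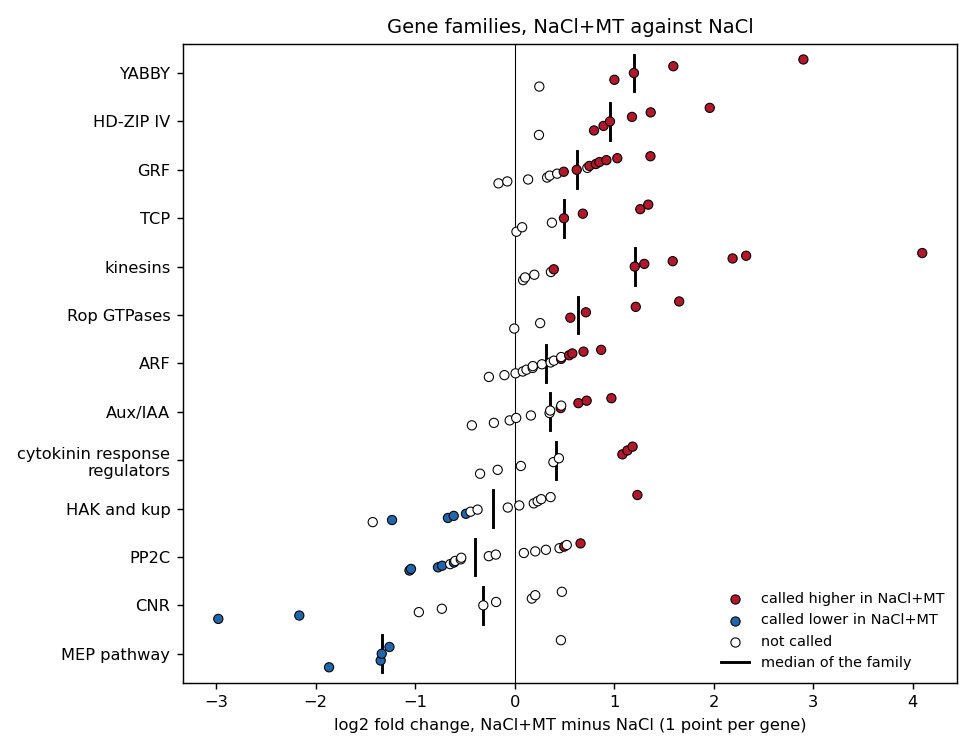
Log2 fold change, NaCl+MT minus NaCl, of each tested gene in 13 families, with the family median as a line. All tested YABBY, HD-ZIP IV and kinesin genes lie above 0 (medians 1.20, 0.96 and 1.21), and the plastid isoprenoid pathway genes lie mostly below 0 (median -1.34).

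Of 29 further cell division genes, 10 rose and 1 fell, with a median of 0.34. The spindle checkpoint gene mad2 had 8.12, 9.05 and 11.3 FPKM in NaCl+MT, against 1.02, 3.09 and 1.15 FPKM in NaCl. Its lowest NaCl+MT library exceeded the highest NaCl library (log2 fold change 2.00, SE 0.27, adjusted p = 0.000702). cyclin8 rose by 1.71, the inhibitory CDK kinase gene wee1 by 1.19, and RNRS3, a small subunit of the ribonucleotide reductase that makes DNA precursors, by 1.04. The receptor-like genes pan1 and pangloss2, which polarise the asymmetric divisions that form stomatal subsidiary cells, rose by 0.88 and 0.82. The D-type cyclin gene cycD2 fell, averaging 52.2 ± 3.77 FPKM in NaCl+MT and 98.8 ± 32.3 FPKM in NaCl (log2 fold change -0.86, SE 0.21, adjusted p = 0.0159), a call lost without NaCl+MT replicate 2 or 3 (adjusted p = 0.0600 and adjusted p = 0.0603). Kinesins, the microtubule motors, rose in 7 of 11 cases with none lower and a median of 1.21. krp13 had 4.43, 5.60 and 6.34 FPKM in NaCl+MT, against 0.221, 0.505 and 0.134 FPKM in NaCl (log2 fold change 2.33, SE 0.22, adjusted p = 0.000101), and KIN8 rose by 1.59. Beta-tubulin genes TUB8 and TUB1 rose by 1.40 and 1.32, and the actin-binding profilin gene prf1 by 1.14. The tubulin family gave 5 higher of 11 with all libraries, 4 higher and 1 lower without NaCl replicate 1, and 2 higher with NaCl+MT replicates 2 and 3 averaged.

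Wall-building genes changed mostly upward, with 10 of 33 cell wall and expansin genes higher, 1 lower and a median of 0.52. CSLD1, a cellulose synthase-like gene needed for normal epidermal cell growth, was near 0 in salt alone, with 2.22, 2.83 and 3.87 FPKM in NaCl+MT, against 0.0140, 0.0880 and 0.0150 FPKM in NaCl (log2 fold change 1.92, SE 0.18, adjusted p = 9.57e-05). The filter fixed this lack of overlap, since CSLD1 was tested only through its 3 NaCl+MT values. CK averaged 3.16 ± 0.553 FPKM. The beta-expansin gene expB4, of a wall-loosening family, had 8.01, 24.8 and 17.4 FPKM in NaCl+MT, against 1.87, 2.04 and 0.571 FPKM in NaCl. All 3 NaCl+MT libraries lay above the NaCl libraries (log2 fold change 2.76, SE 0.41, adjusted p = 0.00125). Structural wall protein genes rose too, prcw1 by 2.74, the hydroxyproline-rich glycoprotein gene HRGP (GRMZM2G168651) by 1.77 and prp2 by 1.67. The alpha-expansin gene expA4 went the other way, at 61.3 ± 13.9 FPKM in NaCl+MT and 128 ± 36.5 FPKM in NaCl (log2 fold change -1.04, SE 0.22, adjusted p = 0.00930). Of the 5 expansin calls, 4 higher and 1 lower among 12 genes, those of expB4 and expA4 held in all 9 fits with 1 library left out. Of 5 laccase genes, which oxidise monolignols in the wall, 3 rose, among them Laccase-13 by 1.498 and Laccase-17 by 1.22. The remaining call was for 1 of the IDs named LAC1, which share a single reference gene and may share reads, and it was lost without NaCl+MT replicate 1 or 3 (adjusted p = 0.0830 and adjusted p = 0.0551).

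Of 6 Rop GTPase genes, switches of polar cell expansion, 4 rose and none fell. The largest change was in GRMZM2G102946, 1 of 2 IDs named rop4, which averaged 4.65 ± 0.585 FPKM in NaCl+MT and 0.801 ± 0.261 FPKM in NaCl (log2 fold change 1.65, SE 0.18, adjusted p = 0.000237), while the other ID, GRMZM2G375002, had a difference of -0.0040. rop6 rose by 1.22. Among 5 annexin genes, which encode calcium-dependent membrane-binding proteins, 3 rose, with Ann5 at 1.94 and Ann9 at 1.21. Of 23 aquaporins 7 rose and none fell, and without NaCl replicate 1 the count was 11. Outside the tonoplast members, pip2-5, a plasma membrane water channel gene, had 8.70, 22.7 and 16.6 FPKM in NaCl+MT, against 3.90, 3.69 and 0.849 FPKM in NaCl (log2 fold change 2.19, SE 0.44, adjusted p = 0.00654). Its groups did not overlap, and nip1a and nip2b, of a branch that carries small solutes as well as water, rose by 1.75 and 1.43. Prolyl 4-hydroxylase genes, whose products modify wall glycoproteins, gave 2 lower of 4, where P4H4 fell by 1.598 and P4H6 fell by 0.77 on the log2 scale, with P4H6 not called without NaCl+MT replicate 2 (adjusted p = 0.0608).

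Auxin genes rose in 15 of 44 cases and fell in 1, with a median of 0.36. The efflux carrier gene PIN1a, which directs auxin through the embryo axis and organ primordia, had 14.3, 16.1 and 14.3 FPKM in NaCl+MT, against 6.03, 7.04 and 5.35 FPKM in NaCl. All 3 NaCl+MT libraries lay well above the NaCl libraries (log2 fold change 1.16, SE 0.13, adjusted p = 0.000328), and CK averaged 19.6 ± 1.32 FPKM. The influx carrier gene aic1 rose by 1.19, the ABCB transporter gene br2 by 0.82, and the Aux/IAA repressor genes BIF1 and BIF4 by 1.03 and 1.00. Auxin response factors rose in 5 of 16 cases, with ARF3 at 0.87 and ARF18 at 0.69. The exception was PIN9, a carrier gene of the monocots, with 0.6, 0.192 and 0.633 FPKM in NaCl+MT, against 3.26, 4.97 and 9.57 FPKM in NaCl. All 3 NaCl+MT values were under 1 FPKM, so PIN9 passed the filter only through NaCl (log2 fold change -2.14, SE 0.36, adjusted p = 0.00262). CK averaged 7.90 ± 3.33 FPKM, a mean close to that of NaCl. With NaCl+MT replicates 2 and 3 averaged into 1 library, 9 auxin genes were called higher and 1 lower.

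Cytokinin genes gave 6 higher and 3 lower of 27, with a median of 0.08 that became -0.05 under quantile normalisation. The counts were 2 higher and 3 lower without NaCl replicate 1, and 3 of the 9 calls held in all 9 fits with 1 library left out. The response regulator genes RR6 and RR7, read as outputs of cytokinin signalling, rose by 1.13 (adjusted p = 0.00131) and 1.08 (adjusted p = 0.00390). Of 6 cytokinin oxidase genes, whose products degrade the hormone, cko1 and cko2 fell by 1.21 and 0.79 on the log2 scale, while 2 others rose. The cko2 call was the one of these 4 to hold in all 9 fits with 1 library left out, and cko1 was not called without NaCl+MT replicate 2 (adjusted p = 0.0504). The strigolactone genes CCD8 and MAX1b, which encode a carotenoid-cleaving and an oxidising step of that branching hormone's synthesis, rose by 1.11 and 1.16, 2 of 4 tested.

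Abscisic acid genes, 5 higher and 8 lower of 43, moved both ways (median -0.06). The largest rise was aba1, an ASR gene (abscisic acid, stress and ripening), with 5.74, 13.3 and 12.5 FPKM in NaCl+MT, against 0, 0.233 and 0.891 FPKM in NaCl. The filter fixed the direction for aba1, since all 3 NaCl values were under 1 FPKM (log2 fold change 3.04, SE 0.33, adjusted p = 0.000230). Receptors of the PYL family gave 1 higher and 3 lower of 9, with PYL11 lower by 1.16. The 2 IDs named PYL3 moved in opposite directions, GRMZM2G154987 rising by 1.18 and GRMZM2G047677 falling by 0.90, the second not called without NaCl+MT replicate 2 (adjusted p = 0.0527 by limma). Among 18 PP2C phosphatase genes, a family that includes the repressors held by these receptors, 5 fell and 2 rose, PP2C11 falling by 1.06 and PP2C25 by 0.77 on the log2 scale.

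The ethylene list, which holds response factors, synthesis and receptor genes and ARGOS-type genes, gave 5 higher and 6 lower of 36, and 5 and 2 with NaCl+MT replicates 2 and 3 averaged. Among the response factors, EREB171 rose by 1.57 and EREB161 by 1.14, whereas EREB179 averaged 119 ± 19.99 FPKM in NaCl+MT and 337 ± 128 FPKM in NaCl (log2 fold change -1.44, SE 0.31, adjusted p = 0.00924). Among 28 genes of jasmonate synthesis and lipoxygenases, 8 were called higher and 3 lower, and the median difference was 0.37. The lipoxygenase gene lox1 had 272, 170.2 and 179 FPKM in NaCl+MT, against 45.9, 50.2 and 59.8 FPKM in NaCl and rose by 1.95 (adjusted p = 0.000261). aos2, for the allene oxide synthase that commits fatty acid hydroperoxides to jasmonate, rose by 1.32. The 12-oxo-phytodienoic acid reductase genes diverged: opr7, which takes part in jasmonate synthesis in maize, rose by 0.94 (adjusted p = 0.00189), and opr1 fell to 4.64 ± 0.651 FPKM in NaCl+MT, against 17.4 ± 5.96 FPKM in NaCl (log2 fold change -1.65, SE 0.23, adjusted p = 0.000865).

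Several genes of sucrose cleavage and glycolysis fell with melatonin. The sucrose synthase gene sh1, whose product splits sucrose to UDP-glucose and fructose, had 79.4, 58.1 and 62.3 FPKM in NaCl+MT, against 378, 257 and 225 FPKM in NaCl. Every NaCl+MT library was far under every NaCl library (log2 fold change -2.07, SE 0.21, adjusted p = 0.000136), and CK averaged 39.2 ± 3.58 FPKM. The cytosolic glyceraldehyde 3-phosphate dehydrogenase gene gpc4 had 279, 323 and 316 FPKM in NaCl+MT, against 964, 1344 and 938 FPKM in NaCl. The groups did not overlap (log2 fold change -1.80, SE 0.22, adjusted p = 0.000393). Its paralogues gpc2 (-0.14, adjusted p = 0.714) and gpc3 (-0.82, adjusted p = 0.0535) were not called. The enolase gene eno1 averaged 473 ± 32.4 FPKM in NaCl+MT and 1063 ± 132 FPKM in NaCl (log2 fold change -1.16, SE 0.20, adjusted p = 0.00265), and the fructokinase gene frk1 fell by 0.82 on the log2 scale. Both IDs named phi1, for glucose 6-phosphate isomerase, fell, by 1.475 and 1.78 on the log2 scale, the second not called without NaCl+MT replicate 1 (adjusted p = 0.0675), but they share 1 reference gene and may share reads. Cleavage of sucrose by invertases differed by gene, and the cell wall invertase gene mn1 had 3.17, 1.67 and 2.24 FPKM in NaCl+MT, against 0.0600, 0.0920 and 0.0640 FPKM in NaCl and rose by 1.63. The vacuolar invertase gene ivr2 rose by 1.45, a call lost without NaCl+MT replicate 2 or 3 (adjusted p = 0.0941 and adjusted p = 0.0625), and incw1 fell by 0.80.

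The alcohol dehydrogenase genes, which regenerate NAD+ when oxygen is short, moved in opposite directions. adh1 had 55.9, 87.8 and 101 FPKM in NaCl+MT, against 257, 216 and 239.7 FPKM in NaCl (log2 fold change -1.57, SE 0.21, adjusted p = 0.000703). adh2 had 66.1, 97.6 and 81.0 FPKM in NaCl+MT, against 12.8, 41.2 and 15.2 FPKM in NaCl (log2 fold change 1.95, SE 0.41, adjusted p = 0.00888). Neither overlapped between groups, and CK averaged 67.8 ± 5.88 FPKM for adh1 and 121 ± 48.4 FPKM for adh2. The haemoglobin gene Hb2 (GRMZM2G168898) also fell, by 1.20, and the aldehyde dehydrogenase gene rf2c rose by 1.95. Mobilisation of stored lipid and starch gave 0 calls among 12 genes by limma, with 2 at an unadjusted p under 0.05, and the isocitrate lyase gene icl1, of the glyoxylate cycle, was high in both groups at 2306 ± 105 FPKM in NaCl+MT and 2083 ± 364 FPKM in NaCl (0.16, adjusted p = 0.753).

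The 2 phytase genes named in the tables rose. Phytase releases phosphate and minerals from phytate, the main phosphorus store of the grain. phytase1 had 285, 334 and 353 FPKM in NaCl+MT, against 33.7, 57.3 and 53.2 FPKM in NaCl. The NaCl+MT and NaCl libraries were far apart (log2 fold change 2.76, SE 0.21, adjusted p = 3.06e-05), and CK averaged 332 ± 27.5 FPKM. phytase2 followed it, with 717, 772 and 775 FPKM in NaCl+MT, against 84.6, 149 and 168 FPKM in NaCl (log2 fold change 2.54, SE 0.28, adjusted p = 0.000267). The myo-inositol phosphate synthase gene mips2, at the start of inositol synthesis, rose by 2.08 (adjusted p = 0.00106). It averaged 7.27 ± 3.29 FPKM in NaCl+MT, 0.838 ± 0.179 FPKM in NaCl and 1.76 ± 0.611 FPKM in CK. The filter fixed the direction for mips2, which was under 1 FPKM in every NaCl library. High-affinity phosphate transporter genes went the other way, pht2 falling by 1.27 and pht1 by 1.35 on the log2 scale, where pht1 was lost without NaCl+MT replicate 2 or 3 (adjusted p = 0.0890 and adjusted p = 0.0847) and fell by 0.84 without NaCl replicate 1. Among 14 HAK and kup potassium transporter genes, HAK8 rose by 1.23 and 4 fell, and none of the 4 kept its call in all 9 fits. Averaging NaCl+MT replicates 2 and 3 left HAK8 as the only call of that family.

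The pathogenesis-related and defence list held calls in both directions, 4 higher and 5 lower of 16. LTP3, for a lipid transfer protein that carries lipids across the wall, had 461, 301 and 375 FPKM in NaCl+MT, against 25.7, 54.7 and 43.1 FPKM in NaCl. Every NaCl library was far under the lowest NaCl+MT library (log2 fold change 3.21, SE 0.26, adjusted p = 4.07e-05), and CK averaged 257 ± 22.5 FPKM. pr5, a thaumatin-like protein gene, fell to 312 ± 135 FPKM in NaCl+MT, against 1571 ± 1022 FPKM in NaCl (log2 fold change -2.23, SE 0.42, adjusted p = 0.00513), and chitinase2 fell by 1.96 on the log2 scale. PR10 fell by 1.21, but was not called without NaCl+MT replicate 2 (adjusted p = 0.0744). Cystatin genes cc8 and cc10, for inhibitors of cysteine proteases, fell by 1.75 and 1.66. The protease inhibitor list had 0 higher and 4 lower of 11. Outside these lists, the germin-like gene GLP2 rose by 2.87 (adjusted p = 0.000576), and the wax synthesis gene CER1 (GRMZM2G099097) by 2.20 (adjusted p = 0.00131).

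Plastid isoprenoid genes fell in 4 of 5 cases. The methylerythritol phosphate route makes the precursors of carotenoids, gibberellins and diterpenes in plastids. dxr, for its reductoisomerase, had 18.9, 19.9 and 21.7 FPKM in NaCl+MT, against 91.8, 55.7 and 85.8 FPKM in NaCl. The groups did not overlap (log2 fold change -1.87, SE 0.22, adjusted p = 0.000349). The terminal reductase gene lw1, Hds1 and the entry gene dxs2 fell by 1.35, 1.34 and 1.26 on the log2 scale, while the other entry gene dxs1 was not called (0.46, adjusted p = 0.140). The diterpene genes CPPS2, for a copalyl diphosphate synthase, and KSL4, a kaurene synthase-like gene, fell by 1.49 and 1.05, the KSL4 call lost without NaCl+MT replicate 2 or 3 (adjusted p = 0.0534 and adjusted p = 0.0511). TPS17, a terpene synthase gene, rose, with 4.06 ± 0.912 FPKM in NaCl+MT and 0.0647 ± 0.0993 FPKM in NaCl (log2 fold change 2.23, SE 0.21, adjusted p = 9.34e-05). CK was well above both for TPS17, at 19.4 ± 5.34 FPKM.

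Aromatic amino acid and phenylpropanoid genes gave calls on both sides. The tryptophan synthase beta genes orp1 and orp2 fell by 1.03 and 0.76, and TSA, for the alpha subunit, by 1.32. The orp2 call was lost without NaCl replicate 2 (adjusted p = 0.0558) and without NaCl+MT replicate 2 or 3 (adjusted p = 0.0802 and adjusted p = 0.0673). Tryptophan is the precursor of melatonin, auxin and serotonin. The benzoxazinoid gene BX3, of a route that branches off before tryptophan, averaged 1217 ± 26.6 FPKM in NaCl+MT and 301 ± 216 FPKM in NaCl (log2 fold change 2.52, SE 0.66, adjusted p = 0.0235), a call lost without any 1 of the NaCl+MT libraries (adjusted p = 0.0664 to 0.0693). Without NaCl replicate 1 it rose by 1.52, and the benzoxazinoid list had 8 higher and 2 lower of 14 in place of 3 and 1. The phenylalanine ammonia-lyase gene pal3, at the entry to phenylpropanoids, had 141, 142 and 141 FPKM in NaCl+MT, against 324, 277 and 277 FPKM in NaCl. The NaCl+MT libraries were nearly identical and each was lower than every NaCl library (log2 fold change -1.04, SE 0.16, adjusted p = 0.00173). The phenylpropanoid and lignin list gave 4 higher and 2 lower of 12 (3 and 1 without NaCl replicate 1), among them ccr2 (cinnamoyl-CoA reductase), which rose by 1.29, and cad1 (cinnamyl alcohol dehydrogenase), which rose by 1.25. Along with pal3 these were the calls of that list to hold in all 9 fits with 1 library left out. The anthocyanin regulator gene c1 fell by 1.22.

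Antioxidant genes gave 2 higher and 2 lower of 28 (7.14% each). Glutathione S-transferase genes, of a family that conjugates toxic compounds, gave 3 higher (9.68%) and 4 lower (12.9%) of 31. Over all genes with a name, 15.7% were higher and 7.63% lower. The glutathione S-transferase gene gst7 had 6.46, 9.03 and 9.20 FPKM in NaCl+MT, against 31.6, 44.2 and 61.0 FPKM in NaCl. Each NaCl+MT value was under each NaCl value (log2 fold change -2.30, SE 0.22, adjusted p = 0.000117), gst20 and gst31 fell by 1.38 and 1.14 on the log2 scale, and gst41 rose by 0.73. The other 3 calls of the list (GST26, gst28 and GST25) did not hold in all 9 fits with 1 library left out. The superoxide-producing NADPH oxidase gene rbohD fell by 1.38 (adjusted p = 0.000703), and the peroxidase gene PER70 rose by 2.33 (adjusted p = 0.00223). PER70 was under 1 FPKM in every NaCl library, so the filter fixed its direction. The polyamine oxidase gene pao1 rose by 1.82 (adjusted p = 0.00937). Among heat shock genes, 6 of 46 rose (13%) and 5 fell (10.9%), and 6 rose and 3 fell without NaCl replicate 1. Of these, hsbp1 (GRMZM2G085924) rose by 4.18 (3.59 to 4.88 with 1 library left out), and the small heat shock protein gene hsp18c fell by 1.57. The dehydrin gene dhn2 rose by 1.44.

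Other transcription factor lists held calls in both directions. bHLH and bZIP genes gave 13 higher (18.8%) and 2 lower (2.9%) of 69, against 15.7% and 7.63% of all genes with a name. They were led by bHLH173 at 2.15 and bHLH137 at 2.09. MYB genes gave 8 higher and 3 lower of 32, with myb8 at 1.66 and the lignin regulator gene myb42 at 1.20. NAC genes, many of them stress regulators, gave 1 higher and 4 lower of 17, with NAC63 at 1.10 and NAC78 at -0.92 as the 2 calls to hold in all 9 fits with 1 library left out, and 2 lower without NaCl replicate 1. WRKY genes gave 1 higher and 2 lower of 15. Chloroplast genes rose in 5 of 13 cases, among them the ferredoxin gene FDX1 by 2.07 and oy1, for a subunit of the magnesium chelatase of chlorophyll synthesis, by 1.46. Ribosomal and translation genes (2 higher and 1 lower of 45) and chromatin genes (3 higher and 1 lower of 63) stayed under the shares of all genes, with medians of 0.05 and 0.00, the DNA methyltransferase gene met2 rising by 1.25.

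The share of calls changed with the level of a gene. Among 7385 genes averaging 1 to 5 FPKM, 15.8% rose and 5.21% fell, and among 915 genes at 100 FPKM or more, 7.65% rose and 10.4% fell. A gene under 1 FPKM in all 3 libraries of 1 group passed the filter only through the other group, and so had to differ. This holds for yab14, ocl4, krp13, CSLD1, aba1, mn1, TPS17, prcw1, bHLH173, FDX1, oy1, ccr2, ssu1, mips2, PER70, c1, PIN9 and others named above. Their lack of overlap lends no support, and those in lists also count in the list shares. Under 1 FPKM in all 3 NaCl libraries and at 1 or more in all 3 NaCl+MT libraries were 521 genes, and the reverse held for 135. Among genes to which the tables used here give no name, a few changed by more than 4 on the log2 scale. AC217560.3_FG001 had 31.4, 57.8 and 65.5 FPKM in NaCl+MT, against 0.131, 2.79 and 0.424 FPKM in NaCl, a rise of 4.78, and CK averaged 72.8 ± 16.7 FPKM. GRMZM2G014705 had 0.713, 0.564 and 0.913 FPKM in NaCl+MT, against 219, 29.1 and 33.3 FPKM in NaCl and fell by 5.15 on the log2 scale, and GRMZM2G037284 fell by 4.80. NaCl library 1 was the highest for both, and the lowest NaCl library had 24.98 FPKM for the second gene and 29.1 FPKM for the first. GRMZM2G014705 was under 1 FPKM in every NaCl+MT library, so the filter fixed its direction. Of the genes tested, 1993 carried a name, and 312 of these rose (15.7%) and 152 fell (7.63%).

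**Figure D4:**
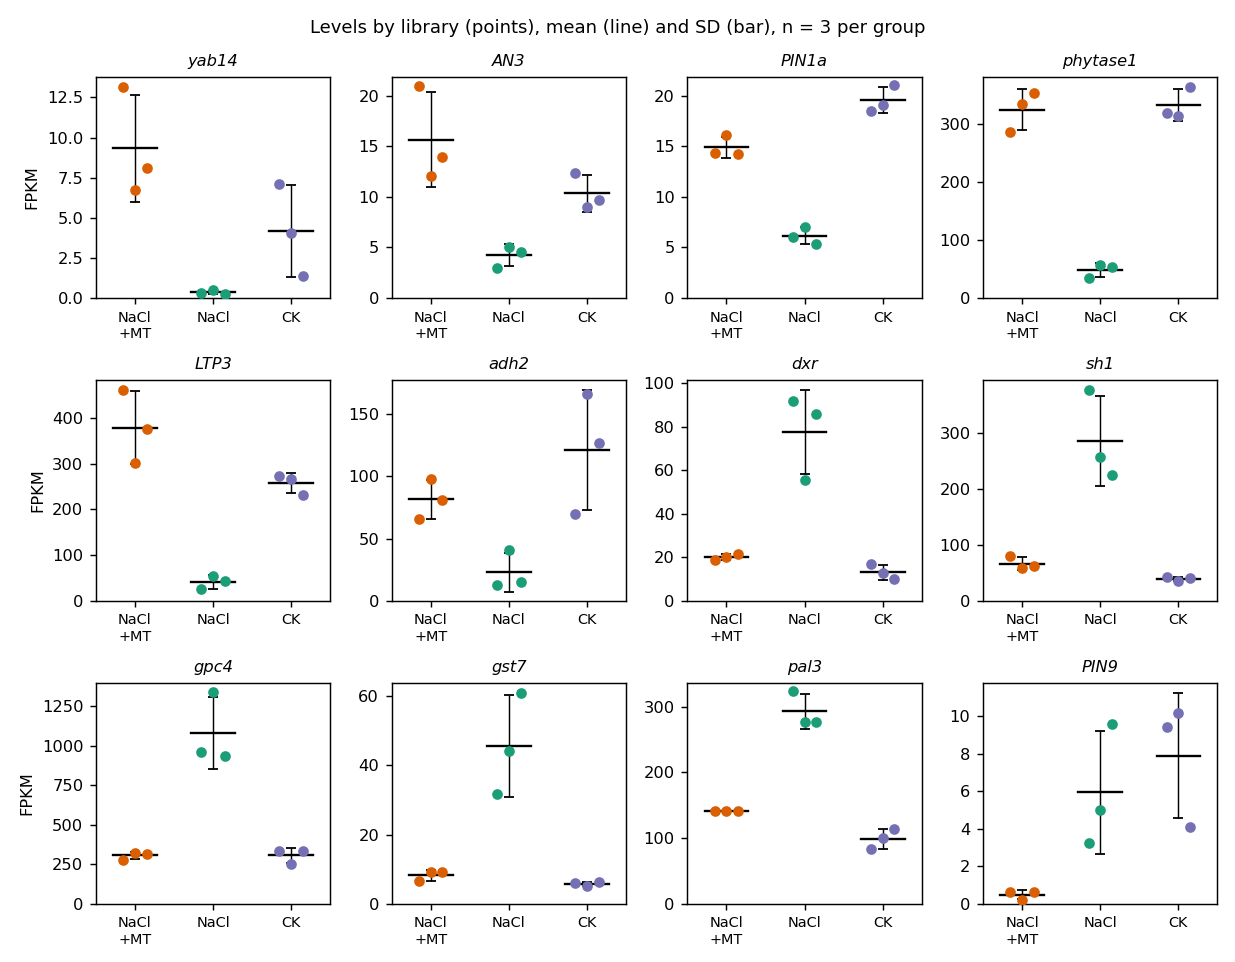
FPKM of 12 genes in each library of NaCl+MT, NaCl and CK, on linear axes from 0, with the mean and SD of each group of 3. For the 12 genes the NaCl+MT and NaCl libraries do not overlap, which the filter fixed in advance for yab14 and PIN9. In NaCl, yab14 reaches at most 0.481 FPKM.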

How the data were processed

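RNA from 9 seed libraries (NaCl+MT, NaCl and CK, 3 each) was sequenced by the authors, from total RNA with an mRNA library kit, per the labels' protocols. The authors deposited 1 table of FPKM per gene, a measure already divided by gene length and library size. The submitters' processing notes name HISAT2, featureCounts, DESeq2 and the build B73 RefGen_v3, while their settings, the use of strand and how FPKM was computed are not given in the sources used here. Without strand, reads of overlapping or antisense genes cannot be told apart.

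Genes with FPKM of at least 1 in 3 of the 6 NaCl+MT and NaCl libraries were kept. log2(FPKM + 1) was fitted with 1 mean per group over all 9 libraries in limma 3.58.1 (R 4.3.3) with a trended prior, and the contrast NaCl+MT minus NaCl was tested with Benjamini-Hochberg adjustment over the 21938 genes at 0.05. Every adjusted p in the text comes from limma, and SE is its standard error. Mean ± SD is over 3 libraries. The code was tested on simulated data.

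Gene names came from the RefSeq table of assembly Zm-B73-REFERENCE-NAM-5.0, whose coordinates were not used. It matched 18908 IDs, 18387 to 1 gene each, and 1993 tested genes (9.09%) had a name. Promoter and protein sequence was not analysed here.

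Up to 2 called members with no overlap were to be named per list, by size of change, or the most abundant member where none was called, which gave 92 genes. Members and lists were chosen with earlier results of these data known. Families, and named genes outside this rule, were picked after their values were seen, and no support is drawn from them. Alternatives covered the pseudocount, the filter, scaling, the libraries in the fit, library weights, a replicate block and each library left out.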

Additional observations from a re-analysis of the deposited data

How the results depend on the processing

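The counts of changed genes moved by over 1.5 times under 5 of the alternatives. An FPKM minimum of 5, which tests fewer genes, gave 2425 changed, 1291 of them higher, with 629 higher by at least 1 on the log2 scale. Without NaCl replicates 1 and 3 the counts were 1777 changed, 1109 higher and 668 lower. With NaCl+MT replicates 2 and 3 averaged, an alternative chosen after seeing the data, they were 2304 changed, 1496 higher and 808 lower. With 1 library left out in turn, changed genes ranged from 2275 to 4235, higher from 1502 to 2588, lower from 773 to 1647, higher by at least 1 from 1039 to 1469 and lower by at least 1 from 465 to 724. The lowest of these came without NaCl+MT replicate 2, and the cause was not tested. Same-numbered NaCl+MT and NaCl libraries shared little beyond their number (r of deviations 0.05, 0.04 and 0.01), and with a replicate block 3377 genes were called, 2101 higher and 1276 lower. For the genes named by rule, 1900 of the repeated fits kept the side of the threshold, 192 kept the direction but missed the threshold and 4 newly passed it. Direction was checked only for genes called in the main fit, for which 0 of the repeated fits changed sign. The scalings moved the median of all genes to between -0.03 and 0.05. Of the list counts repeated under the alternatives, 2060 stayed within 1.5 times the reported count and 378 did not, against 58 list medians that moved by more than the spread between libraries (1 SD) and 1160 that did not. Some list medians near 0 changed sign with scaling, among them sucrose and sugar transport (-0.03 with median-ratio scaling). Without NaCl replicate 1 the list medians of ethylene and of defence genes changed sign to 0.07 each, and the PYL median to 0.10. FPKM carry no absolute depth, so low levels in the shallow NaCl library 3 are less precise to an unknown degree.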
